A study of Oryctolagus cuniculus with 3 samples.

Results

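Somatostatin, neuropeptide Y and 5 further genes of neurons, namely TH, SYT1, NEFH, GAP43 and RESP18, were followed in the abdominal aorta during progression and regression of rabbit atherosclerosis. These 7 genes were chosen by the measured values of these same arrays, because all of them stand in the study's cluster 4. The paper describes that cluster as genes that rose quickly and afterwards either stayed unchanged or went back to baseline. Each gene was represented by 1 of 43603 gene probes on the array. The SST probe was given in advance, and each other probe is the only one whose ratios to control lie within 0.006 on the log2 scale of that gene's listed ratios. The closest match deviated by 3.2e-06 for SST and the loosest by 0.00483 for TH, while the nearest probe outside the limit deviated by 0.0441 (GAP43). The pattern that the genes share is therefore a description of the choice and was not tested.

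The arrays were hybridized with RNA from male New Zealand white rabbits, bought at 3 months of age. The control rabbit was uninjured and ate normal chow without restriction (day 0 of atherosclerosis). Its sample title carries the label PBS, and the methods describe no PBS treatment of rabbits. The model rabbit ate chow with 1% cholesterol and 6% peanut oil over 4 weeks, and its abdominal aorta was injured with a balloon catheter early in that diet (day 30). The recovery rabbit had the same diet and injury and was then kept for 4 more weeks without added cholesterol (day 60), which the sample labels call a normal diet and the methods a diet restricted by 20%. Each group is 1 array of 1 rabbit, picked by the study from 4 by pathology and ultrasound, and the control had no sham operation. Injury, diet and time cannot be told apart. With no replicate there is no SD and no p-value, and each difference compares individual aortas.

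Somatostatin is a peptide hormone that inhibits the release of other hormones and is made by endocrine cells and by some neurons. Sympathetic neurons, whose fibres run in the adventitia of arteries, make noradrenaline from tyrosine by way of tyrosine hydroxylase (TH), store it in vesicles and release it together with neuropeptide Y, a vasoconstrictor. Their cell bodies lie in ganglia outside the vessel wall, some of them next to the abdominal aorta. Synaptotagmin 1 (SYT1) is the calcium sensor of vesicle release, GAP43 is a protein of growing axons, NEFH is the heavy neurofilament subunit of large axons, and RESP18 is a protein of the endocrine secretory pathway.

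Values are log2 normalized signals. A signal below 4.37, the 40th percentile of all gene probe values, was set to that floor, so that a fold against it is a lower bound and values below it have no order. All 7 members exceeded the floor in the model aorta. In control 5 of 7 lay below it, and in recovery 6 of 7. The 7 members were at least 2-fold higher in model than in control, as were 11.9% of the 28950 probes above the floor in some array. All 7 were also at least 2-fold lower in recovery than in model, against 8.16% of those probes. A reversal of at least 0.5 of the log2 difference between model and control was found for 7 of 7 members and 2.81% of probes, figures from which nothing can be read because the members were chosen on these contrasts.

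**Figure D1:**
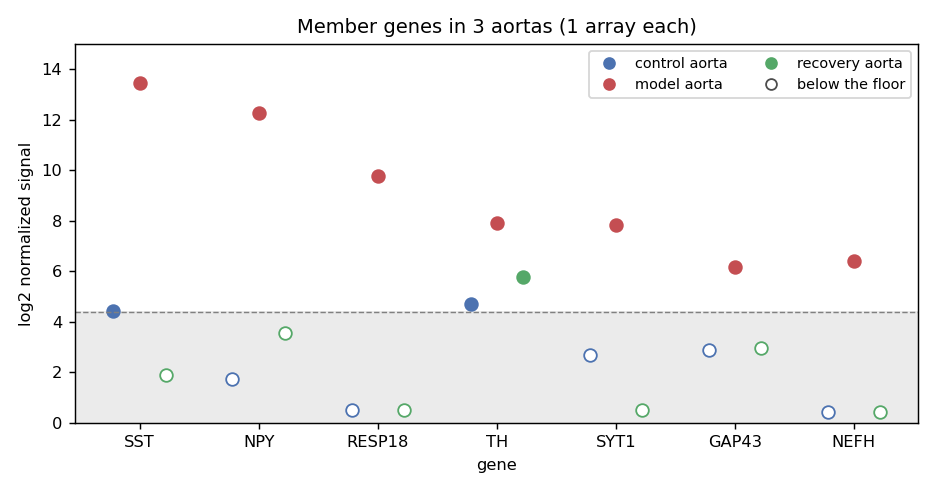
Log2 normalized signal (vertical axis) of the 7 member genes (horizontal axis) in the control, model and recovery aorta, 1 array each. Filled points lie above the floor of 4.37 (dashed line) and open points below it. Every model point is filled, and TH alone is filled in all 3 aortas.

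The peptide genes and RESP18 are given first, as measured folds or bounds that have no order among them. For SST the log2 signals were 4.44 (control), 13.44 (model) and 1.88 (recovery). It was 513-fold higher in model than in control and at least 536-fold lower in recovery than in model. Of the 3 aortas only that of the model had a high SST signal. Because the control signal lay just above the floor, the fold rests on where the floor is set, and a floor at the 60th percentile left a difference of 6.86 on the log2 scale. The deposited difference of recovery minus control was -2.56 for SST, but with the recovery value set to the floor it was 1.04-fold.

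NPY had 1.74 in control, 12.25 in model and 3.57 in recovery, so this probe exceeded the floor only in the model aorta. It was at least 235-fold higher in model than in control, and the bound against recovery is the same because both were set to the floor. RESP18 had 0.49 in control, 9.78 in model and 0.51 in recovery, at least 42.4-fold higher in model than in either of the others. The matched probes of both genes were above the floor in the model aorta alone.

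TH, the rate-limiting enzyme of noradrenaline synthesis, was the only member measured above the floor in every aorta. Its log2 signal was 4.72 in control, 7.90 in model and 5.77 in recovery. TH was 9.09-fold higher in model than in control and 4.38-fold lower in recovery than in model. It remained 2.08-fold above control in recovery, where 16% of probes were at least 2-fold higher. Of the log2 difference between model and control, a share of 0.67 was reversed for TH, the lowest among the 7 members.

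SYT1 had 2.70 in control, 7.84 in model and 0.51 in recovery, at least 11.1-fold higher in model than in the other aortas. The axonal genes were closer to the floor in model. NEFH had 0.43 in control, 6.40 in model and 0.43 in recovery, at least 4.07-fold higher in model. GAP43 had 2.89, 6.17 and 2.96 in the same order, at least 3.46-fold higher in model. With the floor at the 60th percentile both NEFH and GAP43 lay below it in every aorta, and no difference could be given for either.

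**Figure D2:**
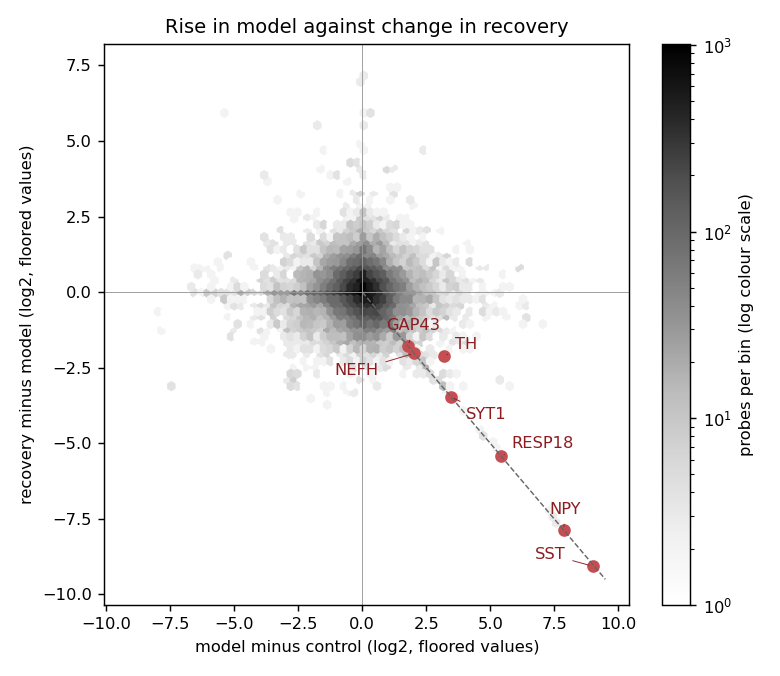
Change from control to model (horizontal axis) and from model to recovery (vertical axis), both in log2 units of floored values, for the 28950 probes that passed the floor in some array (grey, darker for more probes on a log colour scale) and for the 7 members (red). The dashed line marks a complete return to control, and TH, with a share of 0.67 reversed, lies above it.

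The listed ratios behave as medians over neighbouring probe numbers, which gave further probes for 2 members. For NPY the median over 5 consecutively numbered probes lies within 0.006 of the listed ratios. These 5 probes ranged from 0.41 to 3.24 in control, from 11.99 to 12.25 in model and from 2.54 to 4.43 in recovery, where 1 of them passed the floor. Probe by probe, NPY was at least 196-fold to 235-fold higher in model than in control. The NPY probes thus differed little from each other in the model aorta, all being read from the same RNA.

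For SYT1 the 5 probes ranged from 7.72 to 8.17 in model and from 0.30 to 3.09 in recovery. In control 4 of them lay below the floor, and the other had 5.78, which gives a measured fold of 5.23, against bounds of up to 12.3-fold for the remaining probes. All SYT1 probes lay below the floor in recovery. The probe with 5.78 in control was thus at least 2.65-fold lower in recovery than in control. SST, TH, NEFH, GAP43 and RESP18 rest on 1 probe each.

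The other genes of the neuronal program were read from 5 lists with 88 genes that are not members, of which 31 stand in the study's cluster sheets. By the rule of 1 matching probe only 5 could be named, and none was at least 2-fold higher in model. With medians over runs of 1 to 5 consecutive probes, a rule adopted after the values had been seen, 13 were named, of which 7 were at least 2-fold higher in model, 2 at least 2-fold lower and 4 neither, against 11.9% and 13.1% of all probes above the floor. The median log2 difference of model over control for these 13 was 1.81 and that for all probes above the floor 0.02. The sheets hold only genes that the study called changed on these arrays, so neither the counts nor the median can be read against all probes.

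Of 17 listed genes of axons and the neuronal cytoskeleton, 9 stand in the sheets and 4 could be named, all from the members' cluster 4. These 4 lay above the floor in model and below it in control and recovery, but their rise follows from the naming. Of the rest in the sheets, UCHL1, KIF5A and KIF5C stand in cluster 4. MAP2 and MAP1B stand in cluster 3, which the paper describes as rising and staying high. No probe was assigned to any of these, and the others were not analysed here. STMN2, a tubulin-binding protein of growing axons, had 4.02 in control, 11.72 in model and 3.45 in recovery as medians over 4 probes, at least 163-fold higher in model than in the others. NEFM, the medium neurofilament subunit, had 0.71, 9.37 and 0.54 over 3 probes, at least 31.8-fold higher in model, with bounds of 15.8-fold to 60.6-fold by probe. RTN1, a reticulon of the neuronal endoplasmic reticulum, was at least 8.60-fold higher and ELAVL4, a neuronal RNA-binding protein, at least 7.09-fold.

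SLC18A2 was the only gene named of 19 listed for transmitter synthesis and sympathetic identity. Of 18 listed for vesicle release, only SNAP25 was named. Both lay above the floor only in the model aorta, and nothing is read from them about the other listed genes. They also come from the members' cluster, so their rise follows from the naming. SLC18A2, the transporter that fills vesicles with monoamines, had 4.01 in control, 6.18 in model and 0.60 in recovery over 5 probes, at least 3.51-fold higher in model than in the others. SNAP25, a component of the membrane fusion complex on which SYT1 acts, was at least 3.90-fold higher in model, by bounds of 2.81-fold and 5.42-fold for its 2 probes.

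**Figure D3:**
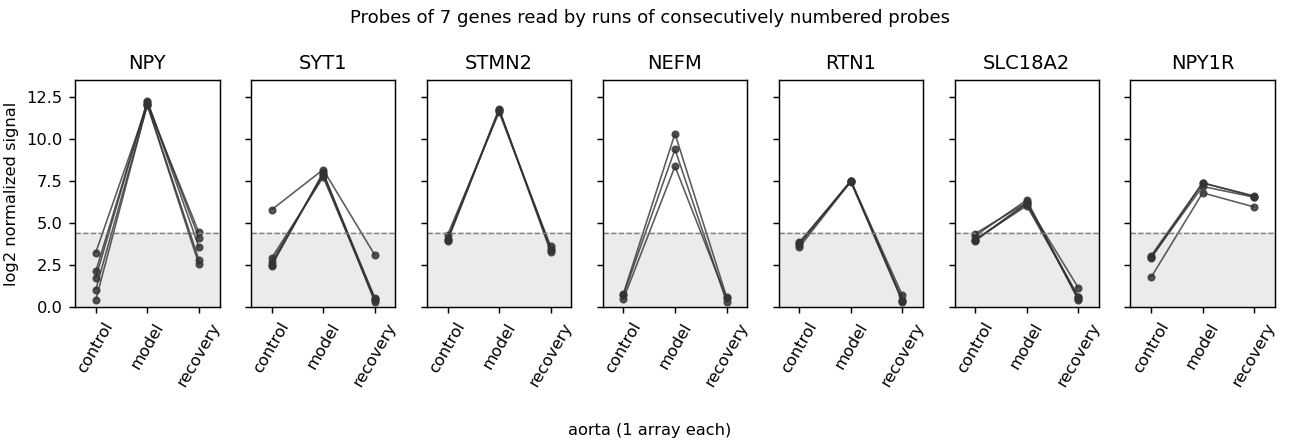
Log2 normalized signal (vertical axis) of each probe in the control, model and recovery aorta (horizontal axis, 1 array each) for the members NPY and SYT1 and for STMN2, NEFM, RTN1, SLC18A2 and NPY1R, with a line per probe and the floor of 4.37 dashed. All 4 probes of NPY1R lie above the floor in recovery, between 5.95 and 6.61, as does 1 NPY probe at 4.43.

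Of the peptide and receptor lists, 3 of 16 and 4 of 18 genes were named through runs, and none of these 7 was both at least 2-fold higher in model and back in recovery. PCSK2, a protease that cleaves prohormones including that of somatostatin, lay below the floor in control, at 5.30 in model and at 6.55 in recovery, so that recovery exceeded control by at least 4.51-fold. TAC1, the precursor of substance P, had medians over 2 probes of 2.63, 4.03 and 5.13, and only the recovery median passed the floor. PENK, the enkephalin precursor, had 7.51 in control, 3.35 in model and 3.07 in recovery over 4 probes, at least 8.81-fold lower in both later aortas. SCG2, a secretogranin of dense-core vesicles named by the rule of 1 probe, lay below the floor in all 3.

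NPY1R, the Y1 receptor through which neuropeptide Y contracts smooth muscle, remained above the floor in recovery, where 4 of the 5 NPY probes lay below it. Its medians over 4 probes were 2.93 in control, 7.26 in model and 6.54 in recovery, at least 7.41-fold and 4.49-fold above control. ADRA2A, an adrenergic receptor that also sits on sympathetic terminals, had 6.23 in control but lay below the floor in both later aortas, at least 3.61-fold lower in each. ADRA1B, another adrenergic receptor, lay below the floor in all 3 aortas. The somatostatin receptors were not analysed here.

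Among 602 genes named by 1 probe, NPY lay nearest to SST in its changes over the 3 arrays, at a Euclidean distance of 1.64 between the floored log2 changes from control to model and from model to recovery, with no unnamed probe nearer. RESP18 followed at 5.13, and then C14H3ORF52 at 7.08, PDILT at 7.42, MCP2 at 7.55 and CKM at 7.75. The 12 probes nearer than RESP18 without a name of this kind include those that runs assign to STMN2 and the other NPY probes. Genes named only through runs, such as STMN2, were not ranked. The order rests on the floor, since without it RESP18 lay at 2.31 from SST and NPY at 3.25, an alternative chosen after seeing the data. Of the same 602 genes, FOXN4 lay nearest to the median of the 7 members at 0.52, then ST6GAL2 at 0.71 and MMP12 at 0.82. PCSK1N, an inhibitor of a prohormone convertase, also lay at 0.82, followed by TMEFF2 at 1.14 and SPOCK3 at 1.27. Between 19 and 58 probes not named by 1 probe lay nearer, among them probes that runs assign to SYT1 and RTN1. Without the floor MMP12 came first, at 1.17, and FOXN4 lay at 3.71.

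Only 70 probes (0.242%) were at least 8-fold higher in model than in control and at least 8-fold lower in recovery than in model. Members account for 11 of these probes, from the 4 genes SST, NPY, RESP18 and SYT1. A further 12 belong to 4 genes of the neuronal lists, 10 to 7 other named genes, and 37 have no name here. The members were chosen on these contrasts, and every other name comes from the study's sheets of changed genes. Probes of the same gene, such as those of NPY, SYT1, STMN2 and RTN1, were counted separately. Whether neuronal genes are more frequent among the 70 probes than elsewhere therefore cannot be read from these counts.

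Marker genes of other cells moved between the same arrays. Every array had high signals of the smooth muscle genes ACTA2, at 12.45, 16.02 and 16.45 in control, model and recovery, and MYH11, at 10.71, 15.14 and 15.66. In control the other named smooth muscle genes were lower, with TPM2 at 6.50 and LMOD1 below the floor. All 4 named smooth muscle genes were at least 2-fold higher in model (11.9% of probes were) and none returned. They all come from the study's cluster 3, which the paper describes as genes that rose and stayed high, so these counts follow from the naming. All 3 named adipocyte genes, which come from sheets of changed genes, were at least 2-fold lower in model than in control (13.1% of probes were), with signals of 10.85 to 16.93 in control, 3.98 to 12.00 in model and 3.08 to 11.62 in recovery, and FABP4 at the upper end of each. S100B, a marker of Schwann cells that adipocytes also make, had 13.34, 9.74 and 9.02 over 5 probes, 12.1-fold lower in model than in control. It was the only gene named of 12 listed for glia, and nothing is read from it about the others. The macrophage genes MMP12 and CX3CR1 lay above the floor only in model, at least 7.42-fold and 2.69-fold above control. The 3 named lymphocyte genes did so only in control, at 5.44 to 8.22. These are 2 of 5 listed macrophage genes, from the members' cluster 4, and 3 of 5 listed lymphocyte genes, from cluster 1. The paper describes cluster 1 as genes that fell and stayed low, so the rise and the fall follow from the naming.

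No gene of the lists for chromaffin cells, the adrenal cortex, endothelium, endocrine cells of pancreas and gut or enteric neurons could be named, so these were not analysed here. The sympathetic genes DBH and SLC6A2 were likewise not analysed here. How far the amount of ganglion, nerve or perivascular tissue in each piece of aorta contributed to the neuronal signals was not tested. Fewer cells of a type and less RNA per cell cannot be told apart in whole tissue.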

How the data were processed

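Expression was measured on 3 single-colour (Cy3) Agilent rabbit arrays, 1 for each group. The deposited values are log2 signals, which the authors quantile-normalized in GeneSpring. For image extraction the submitters' processing notes name Feature Extraction 10.7. How background and repeated spots were treated is not given in the sources used here. The sorted columns differed by at most 0.016, so no scaling was added. In each array 60.0% of probes exceeded the floor, and the number of arrays limits the precision.

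Probes carry no gene names in the value table. The 7 members and the genes of 5 neuronal and 10 other cell type lists were named by matching both log2 ratios to the study's cluster sheets within 0.006, requiring 1 matching probe and, for list genes, at most 3 others within 0.05. The sheets' ratios served only for naming. Medians over runs of up to 5 consecutive probe numbers were added after the values had been seen. They named 714 genes, 296 through 2 or more probes, and 24 when both ratios were displaced by 0.1. All 7 member symbols stand in the RefSeq gene table, but probe positions were not used here. A fold of 2 counted as changed. Members and lists were chosen with earlier results of these data known. The text gives all 7 members and chose further names among neuronal genes with a probe and up to 4 genes of each other list. It also names the 6 genes nearest to SST and to the members' median among those named by 1 probe. Counting and matching were tested on simulated data. Python 3.11.15, numpy 2.4.6, pandas 2.3.3 and matplotlib 3.10.9 were used. Some genes of the lists are counted but not reported here by name.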

Additional observations from a re-analysis of the deposited data

How the results depend on the processing

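No paired analysis was possible because each group has 1 array, and leaving out a replicate was not possible for the same reason. The median over further probes of a gene from an annotation table was not run. Of the 7 members, 7 were at least 2-fold higher in model with no floor, the lower floor, both other scalings and medians over probe runs, 6 at a threshold of 4-fold and 5 when the 60th percentile served as floor (NEFH and GAP43 were lost). The return held for 6 at a cutoff of 0.8, without TH. With a match tolerance of 0.003, 3 members could be named, and 3 were higher, 3 returned and 3 were lower in recovery than in model. Members at least 2-fold lower in recovery than in control numbered 0. In control 5 members lay below the floor and SST just above it, so for these a 2-fold decrease could not be seen. The number was 2 without a floor (SST and SYT1) and 1 at the lower floor, the 20th percentile (SST). Neuronal list genes at least 2-fold higher in model numbered 0 of 5, but 2 without a floor or at the lower floor, 1 when scaled by the spiked-in controls, 1 at a threshold of 1.5-fold and 7 of 13 with probe runs. Those that returned numbered 0, but 1 with no floor or the lower floor and 6 with probe runs. Probes differing at least 2-fold between some arrays numbered 11832 of 28950, but 20016 of 43603 without a floor and 7506 of 20145 at the higher floor. Of the 28950 probes, 19203 differed at a threshold of 1.5-fold and 4111 at 4-fold. Signal over background limits every bound, since 5 members in control and 6 in recovery did not reach the floor. The 8 spiked-in controls differed by -0.46 in model over control and 0.56 in recovery over model.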

Other observations

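Besides the neuronal genes, a few named genes were at least 8-fold higher in model than in control and at least 8-fold lower in recovery than in model, picked after their values were seen. FOXN4, a forkhead transcription factor, had 3.17 in control, 7.48 in model and 3.46 in recovery. PDILT, a protein disulfide isomerase of the testis, had 4.43, 9.11 and 6.07, so that recovery stayed 3.12-fold above control. C14H3ORF52 had 4.56, 10.24 and 7.18 as medians over 3 probes. VSTM2L had medians over 5 probes of 2.27, 7.50 and 0.40, but its probes disagreed in control, from 0.39 to 5.72, and in recovery, from 0.31 to 8.14. Each of these comparisons rests on 1 aorta per group and was not tested.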
